A study of Mus musculus with 18 samples.

Results

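Control nasal mucosa of the mouse is described here from the group CON, chosen by its label alone: 6 libraries (CON 1 to CON 6) of the 18 in the series. The tissue is given as nasal mucosa, the RNA was selected by its poly(A) tail, and no measured value entered the choice. The other 12 libraries come from mice in which papain, a plant protease, was used to model chronic rhinosinusitis, with or without the compound C10, and are not used here. The labels state neither what the control animals were given nor their strain, age or sex, and they do not say that every library is its own animal, so the p-values below speak only of the spread between these libraries, which may be technical. Ddx3y, on the Y chromosome, was found at 9.82 to 12.7 FPKM in the 6 libraries, and Xist, which silences an X chromosome in females, reached at most 0.00634 FPKM.

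The mucosa of the nose joins a respiratory lining of ciliated, secretory and basal cells to an olfactory lining, in which sensory neurons are held between sustentacular cells that carry detoxifying enzymes. Each olfactory neuron uses a single odorant receptor out of a very large gene family and signals through the G protein Golf, adenylate cyclase and a cyclic nucleotide-gated channel. Nasal glands and epithelium secrete lipocalins, small barrel-shaped proteins that carry odorants, together with mucins and antibacterial proteins, and plasma cells in the wall of the nose supply antibodies.

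Each library held 16510920 to 18433866 counts over 54532 annotated genes. At least 1 count was present for 31310 genes, and 14522 genes had a mean of at least 1 FPKM (counts divided by gene length and library size) and 10 counts. Single libraries had between 14554 and 14809 genes at 1 FPKM or more. Protein-coding genes made up 92.7% to 95.1% of the summed FPKM. A group of lipocalin genes was low in CON 3, markers of cartilage and bone were high there, and olfactory neuron markers were lowest in CON 5, so values with and without these libraries are given where a result rests on them.

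The transcriptome was concentrated in few genes. The 10 most abundant genes of a library held 14.7% of the summed FPKM in CON 3, 27.7% in CON 5 and a median of 25.2% (mean 23.2% ± 5.23, standard deviation [SD], n = 6), and the mean was 24.2% without CON 3 and CON 5. The 100 most abundant held 36.2% to 50.4%, and the 1000 most abundant 61.5% to 71.2%. The same gene ranks taken by raw counts gave lower shares, 7.02% to 10.9% for the top 10, because FPKM divides by length and many of the leading genes are short. CON 3 was the least concentrated library on both scales.

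Secreted lipocalins led the list. Of the 30 genes with the highest mean FPKM, 11 were lipocalins, and together they made up 9.49% of the summed FPKM in CON 3, 17.1% in CON 4 and 23.1% to 27.2% in the other 4 libraries. Obp1a, an odorant-binding protein, was the most abundant transcript of all, at 4876 FPKM in CON 3, a median of 19222 and 23432 in CON 1 (mean 16516 ± 7430, SD, n = 6). Obp2a followed with 7595 to 20708 FPKM around a median of 15546. Gm14744 ranged from 2923 to 14259 FPKM, Obp2b from 5688 to 13597 and Obp1b from 2284 to 9648. These 5 genes stood above every mitochondrial transcript by their mean. All 11 lipocalins were lowest in CON 3. The next lowest library was CON 4 for 7 of them and CON 6 for the other 4, which were Obp2a, Obp2b, Lcn3 and Lcn4. In bulk tissue, fewer cells of a type and less RNA in each cell cannot be told apart.

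**Figure D1:**
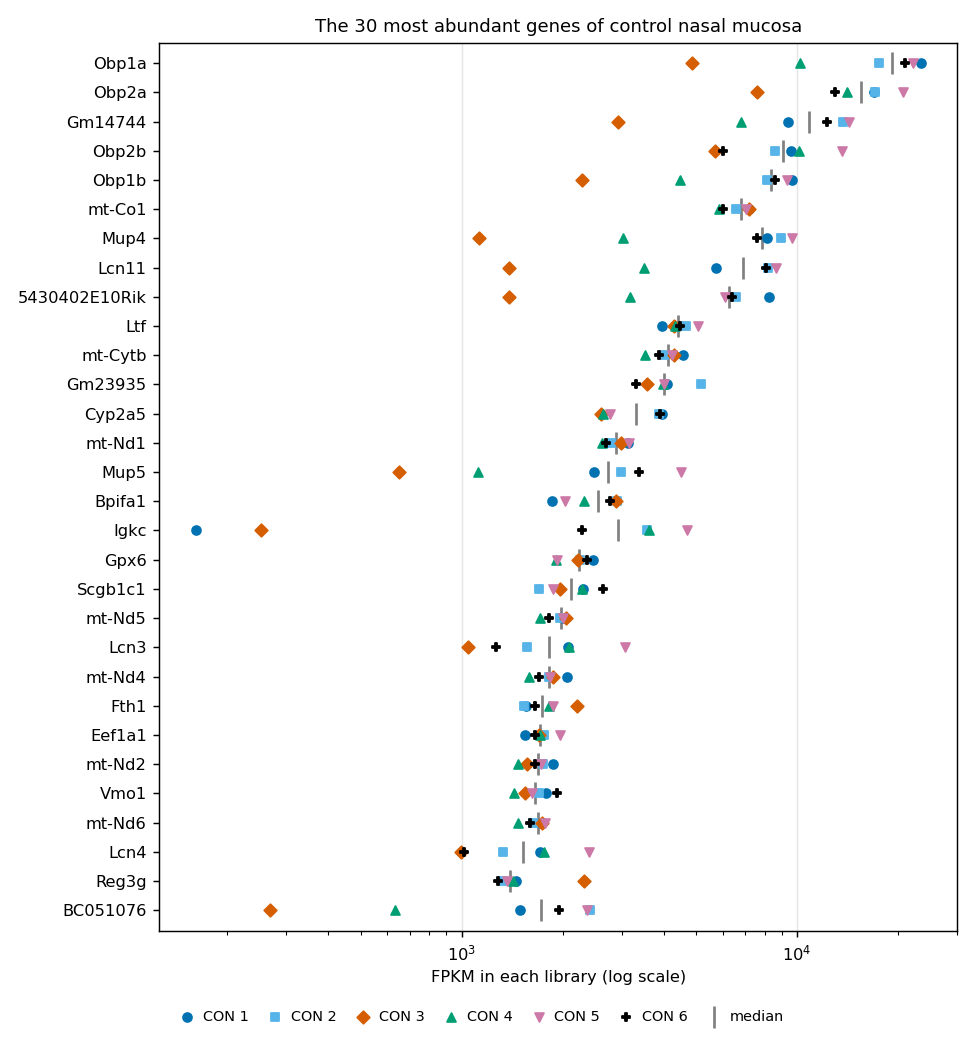
FPKM (log axis) of the 30 genes with the highest mean, 1 symbol per library and a grey bar at the median of 6. The orange diamonds of CON 3 lie far to the left for the lipocalins (Obp, Lcn and Mup genes, Gm14744 and 5430402E10Rik) and among the other libraries for the mitochondrial genes, while Igkc is low in CON 1 and CON 3.

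The abundant lipocalins sit in 3 places of the genome (mm10). On the X chromosome, Gm14744, 5430402E10Rik, Obp1a, Obp1b and Gm14743 lie within chrX:77864758-78245921 and held 3.66% of the summed FPKM in CON 3, a median of 12.2% and 13.6% in CON 1. On chromosome 2, Obp2a, Obp2b, Lcn3, Lcn11 and Lcn4 lie within chr2:25700043-26671282 and held 5.30% in CON 3, a median of 9.24% and 11.5% in CON 5. Mup4 and Mup5, of the major urinary protein family, lie at chr4:59956804-59960710 and chr4:61831319-61835233 and held 0.563%, 2.84% and 3.36% in the same order, again lowest in CON 3 and highest in CON 5. The ratio between the highest library and CON 3 was 8.57-fold for Mup4, 6.90-fold for Mup5, 6.27-fold for Lcn11 and 4.81-fold for Obp1a, against 2.39-fold for Obp2b and 2.40-fold for Lcn4. The X and chromosome 4 genes and Lcn11 thus spanned a wider range than Obp2a, Obp2b, Lcn3 and Lcn4, the same 4 genes that had CON 6 as their next lowest library.

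The 250 bases before the start of these genes were read from the RefSeq promoter table (build GRCm38.p6), because the genes share families and neighbourhoods and moved together among libraries. Of the 10 windows found, 5 are printed 5′ to 3′ on the gene's own strand, with the letters TATAAA in capitals: 3 that hold these letters and a near-identical pair that does not, picked after the windows were read.
Obp1a, chrX:78091375-78091624, minus strand: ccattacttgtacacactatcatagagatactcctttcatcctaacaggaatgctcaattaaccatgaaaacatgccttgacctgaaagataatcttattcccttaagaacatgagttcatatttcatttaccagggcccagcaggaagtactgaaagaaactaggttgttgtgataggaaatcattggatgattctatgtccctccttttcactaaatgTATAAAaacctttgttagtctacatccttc
Gm14744, chrX:77864508-77864757, plus strand: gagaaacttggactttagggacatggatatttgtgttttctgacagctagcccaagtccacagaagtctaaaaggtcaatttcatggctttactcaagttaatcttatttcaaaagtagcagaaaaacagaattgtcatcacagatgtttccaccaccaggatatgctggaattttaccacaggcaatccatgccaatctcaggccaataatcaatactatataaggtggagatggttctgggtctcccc
5430402E10Rik, chrX:77925063-77925312, minus strand: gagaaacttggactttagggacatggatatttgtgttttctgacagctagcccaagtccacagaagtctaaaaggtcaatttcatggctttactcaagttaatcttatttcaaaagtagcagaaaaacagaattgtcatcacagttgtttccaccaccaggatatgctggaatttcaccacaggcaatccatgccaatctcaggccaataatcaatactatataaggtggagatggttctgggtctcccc
Obp2b, chr2:25736757-25737006, plus strand: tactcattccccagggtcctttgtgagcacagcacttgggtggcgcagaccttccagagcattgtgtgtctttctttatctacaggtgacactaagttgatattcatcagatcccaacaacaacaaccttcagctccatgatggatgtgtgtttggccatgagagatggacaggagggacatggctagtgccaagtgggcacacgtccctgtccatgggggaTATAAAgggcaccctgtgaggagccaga
Lcn3, chr2:25765283-25765532, plus strand: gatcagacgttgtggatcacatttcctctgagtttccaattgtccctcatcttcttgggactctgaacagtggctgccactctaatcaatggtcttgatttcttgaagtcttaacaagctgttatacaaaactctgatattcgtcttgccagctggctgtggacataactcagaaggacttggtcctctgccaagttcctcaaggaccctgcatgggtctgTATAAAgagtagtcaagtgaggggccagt
Over these 250 bases Gm14744 and 5430402E10Rik were 99.2% identical (248 of 250 aligned positions), so reads of such near-identical copies may have been split between them and their separate levels are uncertain. Over their aligned windows Obp2a and Obp2b matched at 214 of 283 columns (75.6%) and Obp1a and Obp1b at 162 of 286 (56.6%). The window of Obp2a is anchored 31 bases from the annotated start of the gene and that of Obp2b 2 bases. For Obp1a and Obp1b these distances are 0 and 31. Bases at the window ends therefore lack a partner, and these percentages can understate how alike the shared stretches are. By the same alignment, pairs on different chromosomes matched at 53.3% (Lcn3 and Mup4) and 48.3% (Obp1a and Obp2a). The 56.6% of Obp1a and Obp1b lies close to such values. The letters TATAAA, searched on both strands, occurred in the windows of Obp1a, Obp1b, Obp2a, Obp2b, Lcn3 and Mup4. They were absent from those of Gm14744, 5430402E10Rik, Lcn11 and Lcn4. A lipocalin list of 11 genes, used for scores below, holds Gm14743 and not 5430402E10Rik. Of the 10 windows found for that list, 7 held the letters, as did 12.2% of 20478 genes. The letters occurred in 0 of 11 windows of mature olfactory neuron markers. The windows of the lipocalin list had a median GC content of 43.2% and all windows 54.4%, and a match describes letters only.

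Several other genes of secreted proteins were abundant but steadier. Ltf, which encodes the iron-binding antibacterial protein lactoferrin, had 3964, 4405 and 5065 FPKM as lowest, median and highest values, and its spread beyond counting noise was a coefficient of variation (CV) of 8.06%, against 45.1% for Obp1a. Bpifa1, an antibacterial surfactant protein of the upper airway, had 1860 to 2901 FPKM, and Bpifb4 and Bpifb6 of the same fold family had 1335 to 1688 and 960.3 to 1360.2. The 13 genes of the BPI fold family held 1.10% to 1.94% of the summed FPKM. Scgb1c1, a secretoglobin, was at 1698 to 2640 FPKM, whereas Scgb1a1, the club cell secretoglobin of the lung airways, had 0 counts in most libraries and at most 0.490 FPKM, in CON 4. The antibacterial lectin Reg3g had 1280.4 to 1458 FPKM in 5 libraries and 2322 in CON 3. Gpx6, a glutathione peroxidase of the olfactory glands, ranged only from 1918 to 2461 FPKM.

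Mitochondrial and housekeeping transcripts filled most of the remaining places. The 7 mitochondrially encoded genes among the top 30 made up 5.05% to 6.88% of the summed FPKM, with mt-Co1, a subunit of cytochrome oxidase, at 5847 to 7174 FPKM. Their CV beyond counting lay between 6.49% for mt-Nd5 and 8.89% for mt-Nd4. mt-Nd5 and mt-Nd6 overlap on opposite strands and the library kit is not stated to keep the strand, so their counts cannot be separated. Fth1, the ferritin heavy chain, and Eef1a1, a translation elongation factor, had medians of 1736 and 1709 FPKM. A pair of entries in the top 30 rest on their gene models: Gm23935 is a 57-base microRNA gene with a mean of 4108 counts inside Zc3h7a, and BC051076 is annotated as an antisense RNA.

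Mature olfactory neuron markers were all present. Omp, the olfactory marker protein, had 575 FPKM in CON 5, a median of 944 and 1312 in CON 6 (mean 974 ± 306, SD, n = 6), and its gene overlaps Capn5. Gfy, a Golgi protein of olfactory neurons, had 255 to 708 FPKM, and Stoml3, a stomatin-like protein of olfactory cilia, 199.6 to 512. Of the transduction chain, Gnal, the alpha subunit of Golf, had 106 to 260.5 FPKM, Adcy3, the adenylate cyclase, 45.0 to 116 and Cnga2, a channel subunit, 70.6 to 169. Each of these genes was lowest in CON 5 and highest in CON 1 or CON 6. Of the 14 markers, 13 were lowest in CON 5, Gng13 being lowest in CON 3, and the mean log2(FPKM + 1) over the list, called its score below, was 5.62 in CON 5, 6.20 to 6.62 in CON 2, CON 3 and CON 4 and above 6.9 in CON 1 and CON 6.

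Markers of younger cells of the lineage were likewise lowest in CON 5 and highest in CON 6 by their score. All 8 markers of immature olfactory neurons were lowest in CON 5. Tubb3, a neuronal tubulin, had 34.8 to 91.5 FPKM and Gap43, a protein of growing axons, 12.4 to 29.1. Nhlh1, a transcription factor of the neuronal lineage, had 4.06 to 9.37 FPKM and was also lowest in CON 5. The score of immature neurons was related to that of mature neurons (Pearson r = 0.966, exact permutation p = 0.00417, adjusted over 10 pairs of lists 0.0185; Spearman rho = 0.943, exact permutation p = 0.0167, adjusted 0.0417; n = 6). Without CON 5 and CON 6, the libraries farthest from the median, r was 0.866. The pairs of lists were chosen with earlier results of these data known.

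Odorant receptors were broadly detected at low levels. Of 1093 receptor genes in the table, 1000 had a count in some library, 831 had at least 10 counts over the 6 libraries and 640 had a count in each. Only 214 reached a mean of 1 FPKM. Olfr969 was the most abundant with 6.61, 15.7 and 20.7 FPKM as lowest, median and highest values, followed by Olfr672 with 4.12 to 14.5 and Olfr598 with 2.59 to 12.3. Olfr969 was 52.4-fold above the median receptor, which had 0.284 FPKM among the 831. The 10 most abundant receptors were all lowest in CON 5 and highest in CON 1, and together held 10.8% of the receptor FPKM. Chromosome 7 carried 236 receptor genes and 38.5% of the receptor FPKM, and chromosome 2 carried 280 genes and 18.6%.

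**Figure D2:**
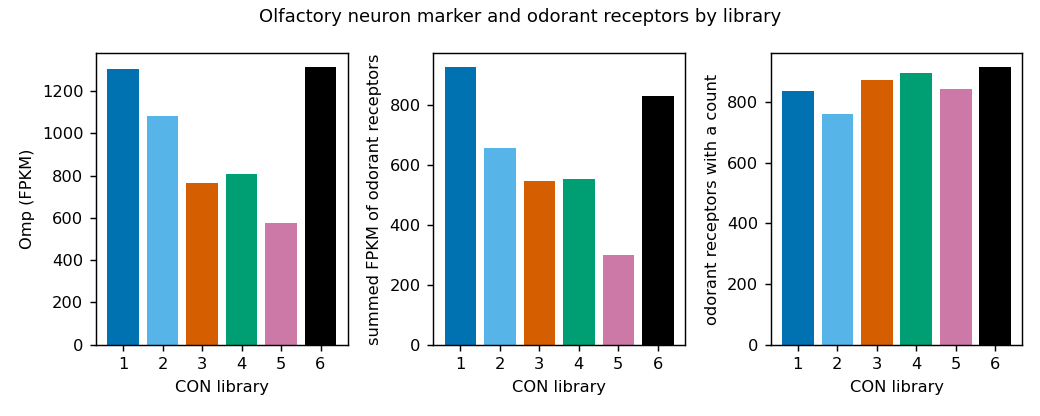
Omp in FPKM, summed FPKM of odorant receptors and number of receptors with a count, 1 bar for each of the 6 CON libraries. Omp and the summed receptors are lowest in CON 5 and highest in CON 1 or CON 6, whereas the number of receptors detected is lowest in CON 2.

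The summed receptor level varied more among libraries than the number of receptors detected. Summed receptor FPKM was 298 in CON 5, 547 to 656 in CON 2, CON 3 and CON 4, 827 in CON 6 and 925 in CON 1, a 3.10-fold range. Per 100 FPKM of Omp the same sums were 51.9 to 71.4, a 1.38-fold range, with CON 5 still lowest. The number of receptors with a count was 760 in CON 2, a median of 858 and 915 in CON 6, so it was not lowest where the neurons were. The order of the 831 receptors was alike between libraries, with Spearman rho of 0.761 to 0.913 over the 15 pairs, given as a description since the receptors share libraries and depth. Trace amine-associated receptors, the second receptor family of olfactory neurons, were led by Taar2 with 1.79 to 7.01 FPKM.

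Promoter windows of the receptors were richer in A and T than those of all genes. TATAAA occurred in 269 of 712 matched receptors (37.8%) and TAATTA, searched on both strands, in 118 (16.6%), against 12.2% and 4.60% of all 20478 windows. Receptor windows had a median GC content of 34.0% against 54.4% over all windows, so the letters A and T are more frequent in them throughout, and a match describes letters only.

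Sustentacular cell markers were among the abundant enzymes. Cyp2a5, a cytochrome P450, had 2598, 3319 and 3965 FPKM as lowest, median and highest values, and Cbr2, a carbonyl reductase, 1165 to 1603. Cyp2g1, a P450 found mainly in olfactory tissue, had 360.5 FPKM in CON 5 and 782 in CON 6, and Cyp1a2 had 234 to 371. Ugt2a1 had at most 0.0421 FPKM, but it shares its locus with Ugt2a2, so its count is uncertain. The sustentacular score followed the olfactory neuron score across libraries (Pearson r = 0.962, exact permutation p = 0.00278, adjusted 0.0185; Spearman rho = 0.943, p = 0.0167, adjusted 0.0417; n = 6), and r was 0.928 without CON 5 and CON 6.

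Detoxifying families held further abundant genes, whose cells cannot be told from bulk tissue. The 93 cytochrome P450 genes held 1.19% to 1.79% of the summed FPKM with 30 genes detected, and Cyp2f2, common in secretory airway cells, had 1081 to 1764 FPKM. Fmo6, a flavin monooxygenase, had 145 FPKM in CON 5 and 268 in CON 1. Among glutathione S-transferases Gsto1 and Gstm1 led with medians of 217 and 186 FPKM. The carboxylesterase Ces1d had 216 to 291 FPKM and the aldehyde dehydrogenase Aldh3a1 82.9 to 124. The median CV beyond counting was 12.9% over all genes tested. It was 11.5% for aldehyde dehydrogenases, 13.5% for glutathione S-transferases, 15.4% for cytochrome P450 genes, 16.5% for flavin monooxygenases, 18.6% for carboxylesterases and 28.6% for UDP-glucuronosyltransferases. Only 5 flavin monooxygenases and 5 UDP-glucuronosyltransferases were tested, of which 5 and 2 exceeded counting noise.

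Markers of ciliated, secretory, basal and rare epithelial cells were present, but bulk tissue does not assign them to the respiratory lining. Foxj1, the master factor of motile cilia, had 58.1, 73.5 and 91.9 FPKM as lowest, median and highest values, and all 16 ciliated cell markers were detected. The ciliated score ran only from 3.76 in CON 5 to 4.08 in CON 3. The mucin Muc5b, which is in both the secretory and the Bowman gland list, had 107 to 201 FPKM. Muc5ac, the mucin of goblet cells, had 33.4 to 82.7, highest in CON 2. Krt5, a keratin of basal cells, had 60.0 to 86.7 FPKM, while Krt14 and Krt17 had 81.6 and 73.6 FPKM in CON 3 against medians of 33.1 and 25.8. Tuft and solitary chemosensory cells left low signals, with Trpm5, their taste-type channel, at 0.939 to 1.61 FPKM and a CV beyond counting of 16.9%. The Trpm5 gene overlaps Tssc4. Ionocyte markers were clearer, with Ascl3 at 21.5 to 31.2 and Foxi1 at 12.3 to 17.7 FPKM.

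Gland markers were present in every library. The score of Bowman gland markers, which include Gpx6, the water channel Aqp5 (115 to 157 FPKM) and Sox9 (14.7 to 17.8 FPKM), had an SD of 0.11 log2 units over the 6 libraries. Of the markers of nerve sheaths, the myelin protein Pmp22 had 17.2 to 23.3 FPKM, but bulk tissue does not place it in nerves. Fabp7, a lipid carrier of olfactory ensheathing cells, had 18.3 FPKM in CON 3 and 41.1 in CON 1.

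Connective tissue, cartilage and bone varied more. Col1a1, the main collagen of bone and dense connective tissue, had 183 FPKM in CON 1, a median of 322 and 793 in CON 3. Cartilage markers had the second largest SD of the 33 lists: the score was 4.15 in CON 3, 2.50 in CON 5 and 0.91 to 1.61 in the other 4, and all 7 markers were highest in CON 3. Acan, the proteoglycan aggrecan, had 1.11 FPKM in CON 6, a median of 4.30 and 53.0 in CON 3. Col10a1, a collagen of mature growth cartilage, went from 0.622 to 103 FPKM between the same libraries. Ibsp, the bone sialoprotein, had 16.3 to 201 FPKM and Ctsk, the collagen-cutting protease of osteoclasts, 48.7 to 128, both highest in CON 3.

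Bone and cartilage scores were related (Pearson r = 0.956, exact permutation p = 0.00556, adjusted 0.0185; Spearman rho = 0.943, p = 0.0167, adjusted 0.0417; n = 6). The relation rests on CON 3 and CON 5, since r was 0.676 without them. Fibroblast and endothelial scores were also related (Pearson r = 0.901, exact permutation p = 0.0111, adjusted 0.0278; Spearman rho = 0.943, p = 0.0167, adjusted 0.0417), with r = 0.844 without CON 3 and CON 5. Fibroblast scores were lower where olfactory neuron scores were higher (Pearson r = -0.90, exact permutation p = 0.0139, adjusted 0.0278; Spearman rho = -0.886, p = 0.0333, adjusted 0.0556), and r was -0.91 without the same libraries. With FPKM rescaled to one sum per library that last relation did not pass (r = -0.59, exact permutation, adjusted p = 0.302). The olfactory neuron score had r = -0.0067 with ciliated cells (exact permutation, adjusted p = 0.994) and r = 0.0469 with the lipocalins (exact permutation, adjusted p = 0.994). Both values near 0 rest on CON 5 and CON 6, since without them r was -0.87 and 0.851.

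**Figure D3:**
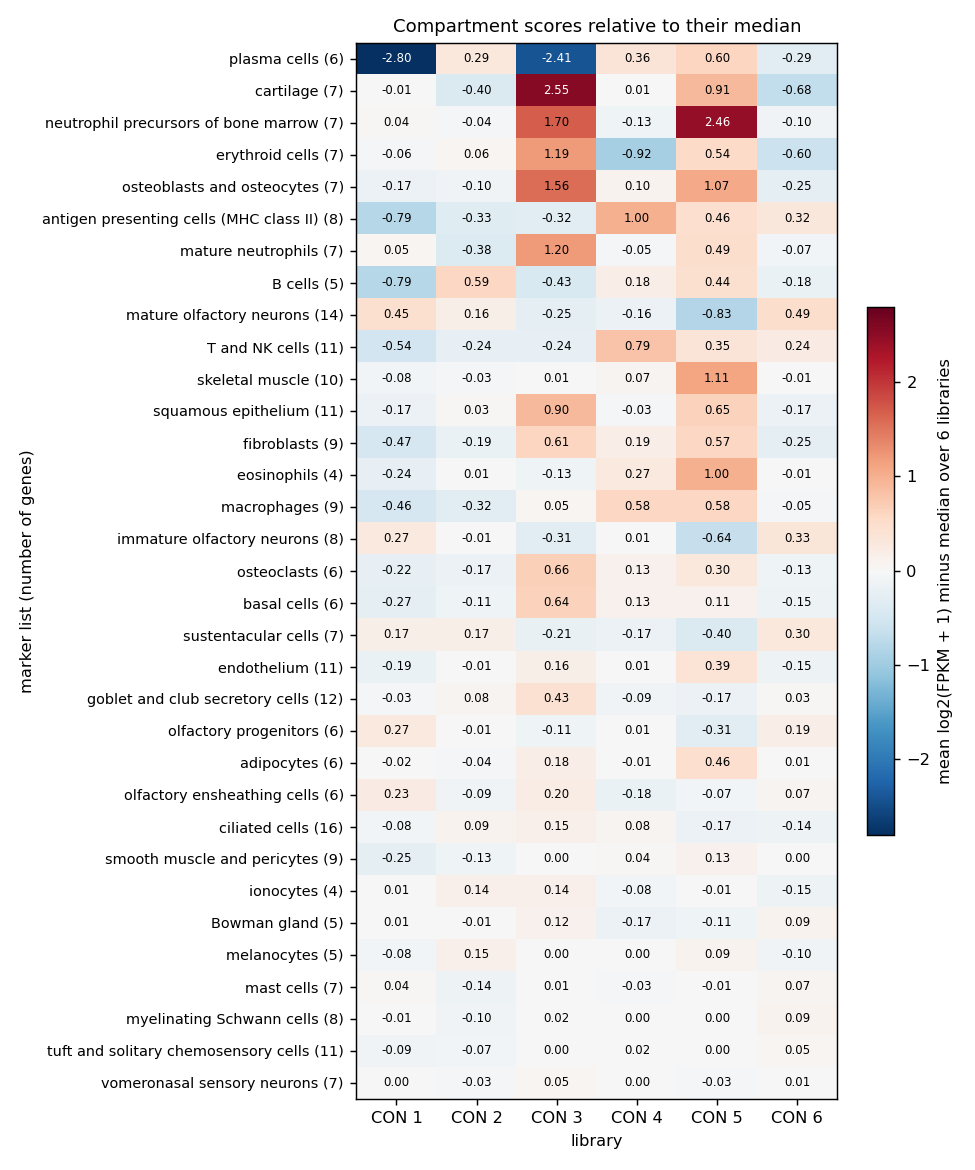
Score of each of the 33 marker lists, as mean log2(FPKM + 1) minus its median over the 6 CON libraries, with the value in each cell and lists ordered by their SD. Plasma cell scores are 2.80 and 2.41 below the median in CON 1 and CON 3, and cartilage is 2.55 above it in CON 3. The lists at the bottom have the smallest SD. Some of them, such as vomeronasal neurons with 0 of 7 genes detected, lie near 0 FPKM, where this score can hardly move.

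Blood and marrow genes were uneven as well. Hbb-bs, an adult beta globin, had 80.5 FPKM in CON 4, a median of 194 and 552 in CON 3. The granule genes Ngp, Camp and Elane of neutrophil precursors were near 0 in 4 libraries. Ngp had 30.5 FPKM in CON 5 with a median of 0.208, Camp 12.4 with a median of 0.111 and Elane 8.48 with a median of 0.144. CON 5 was highest for all 7 precursor markers and CON 3 had the next score. Ltf belongs to this list but its level varied 1.28-fold, and without it the score ran from 0.10 in CON 4 to 2.24 in CON 3 and 3.08 in CON 5. Mature neutrophil markers differed in order, with S100a9, a calcium-binding alarm protein, at 207 FPKM and Il1b, an inflammatory cytokine, at 133 FPKM in CON 3, against medians of 84.1 and 35.1. CON 5 alone showed skeletal muscle markers, with Acta1 at 6.80 FPKM against a median of 0.600.

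Antigen presentation genes were highest in CON 4. Cd74, the chaperone of MHC class II, had 313 FPKM in CON 1, a median of 840 and 1629 in CON 4. All 8 antigen-presenting markers and all 11 T and NK cell markers were highest in CON 4. Trac, the constant region of the T cell receptor alpha chain, had 5.12 to 15.4 FPKM. Cxcl9, a chemokine induced by interferon gamma, had 1.92 FPKM in CON 1 and 32.8 in CON 4, and 8 of 11 interferon-stimulated genes were highest there. Macrophage complement genes C1qa and C1qb had medians of 122 and 119 FPKM and were also highest in CON 4.

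Antibody genes showed the widest range, and the plasma cell list had the largest SD of the 33 lists. Igkc, the kappa light chain constant region, had 161 FPKM in CON 1 and 252 in CON 3 against 2283 to 4712 in the other 4 libraries. Igha, the constant region of IgA, had 63.9 and 97.6 FPKM in those 2 libraries and 760.2 to 1611 in the others. Jchain, which joins IgA units, followed with 13.9 to 374 FPKM around a median of 199. All 6 plasma cell markers were lowest in CON 1, and CON 3 had the next score. Among IgG classes Ighg2b was highest in CON 4 with 318 FPKM, whereas Igha was highest in CON 5.

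**Figure D4:**
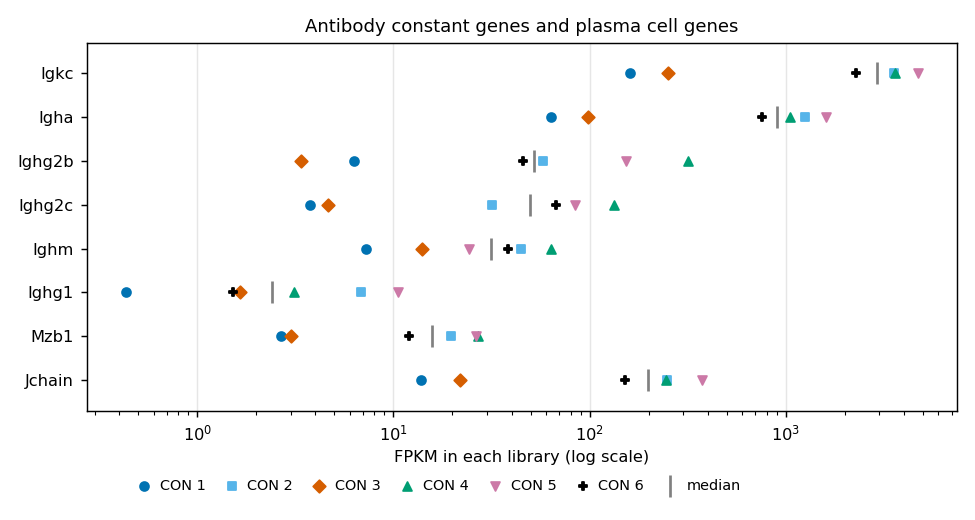
FPKM (log axis) of antibody constant genes with a mean of at least 100 counts and of the plasma cell genes Mzb1 and Jchain, 1 symbol per library, grey bar at the median. CON 1 and CON 3 lie to the left of the other libraries for Igkc, Igha, Ighg2b, Ighg2c, Mzb1 and Jchain, while Ighg2b and Ighg2c are highest in CON 4.

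Antibody variable segments were largely private to a library, and odorant receptors were not. Of 90 V segments with at least 100 counts, 66 had over 50% of their counts in 1 library and 18 over 90%. Ighv13-2 had all of its 3158 counts in CON 5 (486 FPKM). Ighv7-1 had 99.1% of its counts in CON 4 and Igkv6-13 99.5% in CON 2. CON 2, CON 4, CON 5 and CON 6 held 15, 15, 21 and 15 of the 66 segments, and CON 1 and CON 3 held 0. Of 415 odorant receptors with at least 100 counts, 0 had over 50% in 1 library, the highest share being 47.4% and the median 27.3%, against a median of 71.6% for V segments. V segments resemble each other closely, so the split of counts between them is uncertain.

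**Figure D5:**
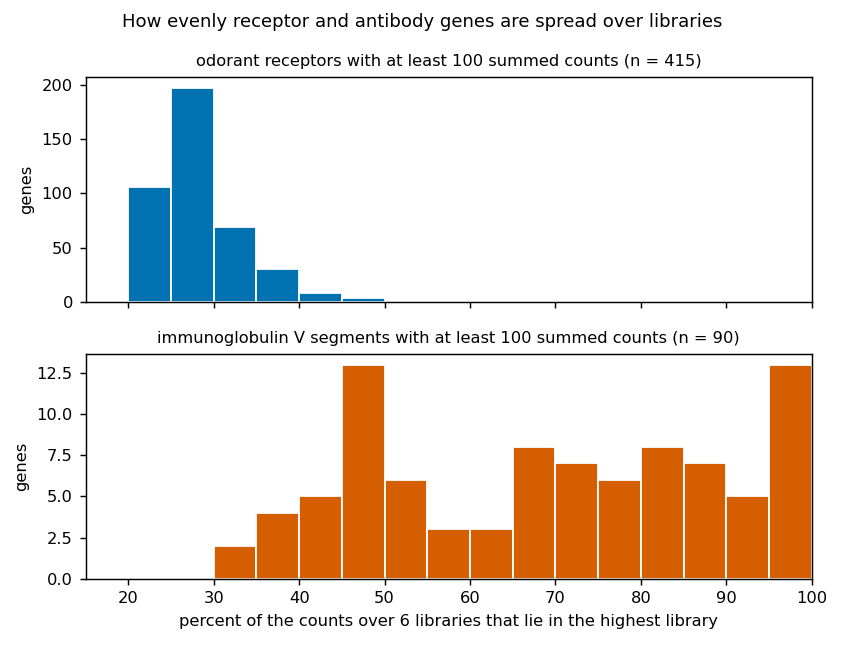
Histograms of the percent of a gene's counts that lies in its highest library, for odorant receptors (upper, 415 genes) and immunoglobulin V segments (lower, 90 genes), each with at least 100 counts. All receptors stay under 50%, and 66 of the V segments lie above it.

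Markers of some cell types were nearly absent. Vomeronasal neurons, whose organ lies in the nasal septum, had a summed marker level of 0.172 to 0.653 FPKM over 7 genes, with Trpc2, their transduction channel, at 0 in most libraries and Vmn2r5 at 0 in all. The gene of Trpc2 overlaps Xndc1 and Xntrpc, so reads of this channel may have been assigned elsewhere. Both vomeronasal receptor families had 0 genes detected, but their shares of the summed FPKM were highest in CON 3. Type 1 held 0.000691% there against a median of 7.89e-05%, and type 2 held 0.000626% against 9.00e-05%. A library with 0 counts allows up to 3 counts, or 0.163 to 0.179 CPM (counts scaled to library size), counting error only. Adipocyte and melanocyte lists had 0 of 6 and 0 of 5 genes detected. Among type 2 inflammation genes, Il33, an alarm cytokine of epithelium, had 26.04 to 37.9 FPKM, whereas Il13 had at most 0.0484 and Retnla 0. Chil4, a chitinase-like protein, had 7.73 FPKM in CON 6 and a median of 0.624. Apex1, the DNA repair enzyme that the study set out to inhibit, had 3.44, 4.22 and 5.42 FPKM as lowest, median and highest values, and its gene overlaps Pip4p1.

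Most genes differed between the control libraries by more than counting allows. Of 17832 genes with a mean of at least 10 counts, 14138 (79.3%) exceeded counting noise in edgeR's goodness-of-fit test of a Poisson model (Benjamini-Hochberg adjusted p under 0.05), and so did all 30 of the most abundant genes and 513 of 525 odorant receptors. At this depth the test therefore passes most genes, and the size of the spread says more. The CV beyond counting had a median of 12.9% over all tested genes and 40.7% at the 90th percentile, and edgeR's common biological CV was 0.202. Without CON 3 and CON 5 together, 11150 genes exceeded counting noise and the common CV was 0.166.

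The scores of the 33 marker lists had a median SD of 0.34 log2 units. This median fell to 0.23 without CON 5 and to 0.15 without CON 3 and CON 5. With a pseudocount of 0.1 in place of 1 it was 0.46, since scores of lists near 0 FPKM then move more. CON 3 was the highest library for 12 of 33 lists and the lowest for 0, and CON 1 was the lowest for 13. At the single-gene level, 173 genes were at least 2-fold above every other library in CON 3, 65 in CON 5, 51 in CON 6, 42 in CON 4, 28 in CON 2 and 18 in CON 1. Immunoglobulin V, D and J segments made up 19 of them in CON 5, 18 in CON 6, 15 in CON 4 and 16 in CON 2. In CON 1 and CON 3 they made up 0. At least 2-fold below every other library were 259 genes in CON 5, 138 in CON 2, 134 in CON 1, 99 in CON 3, 77 in CON 6 and 30 in CON 4.

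Outside the immunoglobulin genes, cartilage, bone and chemokine genes were among those with the widest spread. Immunoglobulin genes and gene models without a proper symbol (Gm, Rik or accession-like names) were left out of this ranking. Ighv13-2, so left out, had a mean of 81.0 FPKM and a CV beyond counting of 245%, against 157% for Acan. The ranking took the 4792 other genes with a mean of at least 10 FPKM and 100 counts. The 12 with the largest CV beyond counting included the cartilage genes Acan, Col10a1, Clec3a and Cytl1. They also included the bone genes Ibsp and Mmp13, and the chemokines Ccl3, Cxcl2 and Cxcl9. Cytl1 had 6.65 FPKM in CON 6 and 282 in CON 3, Ccl3 1.48 and 73.1 and Clec3a 0.823 and 48.8 in the same libraries. A gene can pass a minimum on the mean through 1 high library, so this choice favours wide spread: the medians were 3.08 FPKM for Clec3a, 3.38 for Cxcl2, 3.84 for Ccl3, 4.30 for Acan, 6.85 for Cxcl9 and 7.70 for Col10a1. At the other end, 75 of the 4792 genes had no spread beyond counting. Pum2, an RNA-binding repressor of translation, had 23.8 to 24.3 FPKM, Ganab, a glucosidase of the endoplasmic reticulum, 50.9 to 52.9 and Sdhd, a subunit of respiratory complex II, 68.9 to 72.8.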

How the data were processed

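RNA of 6 control libraries was analysed. Per the labels' protocols, mRNA was bound to poly-T beads, fragmented, primed with random hexamers and made into libraries with the VAHTS Universal V6 kit. The deposited table of raw counts per gene and the deposited FPKM table were made by the authors on build mm10, per the submitters' processing notes; which aligner, counter and gene annotation they used is not given in the sources used here. FPKM equalled count over gene length with 1 constant per column, which implies library sizes 0.982 to 1.06 times the column totals. The summed FPKM ran from 315512 in CON 3 to 421177 in CON 5, so a share of the sum and an FPKM value can order libraries differently. All columns were matched, and 0 were left over.

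Levels and shares were described from FPKM, and scores are means of log2(FPKM + 1). The spread was tested on counts in R 4.3.3 with edgeR 4.0.16 (TMM sizes, dispersion 0, goodness of fit) for genes with a mean of at least 10 counts. The CV beyond counting is the root of the squared CV of TMM-scaled counts minus 1 over the mean count. Tested on simulated counts of 17709 genes, the test called 69 of 98 genes with an extra CV of 0.2, 90 of 98 with 0.5 and 8 of 17513 with 0. List relations used exact permutation over 720 pairings, two-sided. Counts of each of the 15 pairs of libraries differed far beyond sampling noise (chi-square over degrees of freedom at least 14.5).

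The 33 compartment lists, 9 programme lists and 32 families, the pairs and the group itself were chosen with earlier results of these data known. The rule for named genes took the 30 highest means, up to 4 members of each list, 2 of each family, the 12 most and 10 least variable genes, 10 receptors and 20 fixed genes, 254 in all. Immunoglobulin genes and gene models without a proper symbol were left out of the most and least variable. Ties among the least variable were broken by level, and other genes were named after their values were seen. Of the 254, 33 overlap a protein-coding gene. Alternatives were other size factors, count minimums, pseudocounts, scales and leaving out libraries.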

Additional observations from a re-analysis of the deposited data

Results flagged for a closer look

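A library far from the other 5 was looked for in 196 genes, marker lists and families, and 20 were flagged. Chance alone gives about 1 in 20. Some of the genes were checked because their values or spread had been seen, and that rate does not hold for them. In CON 3 the share of the summed FPKM was high for globins (0.454%, others 0.0507% to 0.119%), serpins (0.427%, others up to 0.260%), aquaporins (0.315%, others up to 0.238%), mucins (0.146%, others up to 0.0892%) and claudins (0.121%, others up to 0.102%). Shares of the sum depend on the lipocalins, which are low in CON 3. Also high there were Reg3g (2322 FPKM, others up to 1458), Gsto1, a glutathione transferase (360.5 FPKM, others up to 253), and the basal keratin Krt14 (81.6 FPKM, others up to 37.6).

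CON 5 stood apart by its skeletal muscle score of 1.41 (others 0.22 to 0.37), with Acta1, skeletal actin, at 6.80 FPKM (others up to 0.915). Its shares of flavin monooxygenases (0.0491%, others 0.0789% to 0.0892%) and replication histones (0.0452%, others 0.0658% to 0.0766%) were low. Gm29216 had 241 FPKM there (others up to 32.2).

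Antibody segments were far from the other libraries in CON 5 (Ighv13-2, 486 FPKM), CON 4 (Ighv7-1, 144 FPKM) and CON 2 (Igkv6-13, 150.2 FPKM). Chil4 had 7.73 FPKM in CON 6 (others up to 1.09). Scgb1a1 with 0.490 FPKM in CON 4, Il13 with 0.0484 FPKM in CON 4 and Trpc2 with 0.0198 FPKM in CON 2 rest on very few counts.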

How the results depend on the processing

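Of 2313 recomputed values, 2224 kept their direction and threshold side or moved by less than the spread. Most of them, 1778, were levels of single genes, and 1775 of these moved by less than 1 SD. Leaving out 1 of 6 libraries cannot move a mean by 1 SD, so agreement from that step was fixed in advance. By raw counts the top 10, 100 and 1000 genes held a mean of 9.19%, 24.3% and 49.3%, in place of 23.2%, 45.3% and 67.3% by FPKM. Leaving out 1 library moved the median SD of the lists between 0.228 (without CON 5) and 0.371, and leaving out CON 3 and CON 5, chosen after seeing the data, gave 0.150. Leaving out 1 library gave 12855 to 13677 genes beyond counting noise, a common CV of 0.191 to 0.212 and 785 to 820 receptors. With FPKM rescaled to one sum per library, 3 correlations changed sign without passing by exact permutation (n = 6): olfactory neurons with ciliated cells to r = 0.285, olfactory neurons with lipocalins to r = -0.172, and immediate early genes with heat shock genes from -0.480 to 0.858 (adjusted p = 0.0583); the cause was not tested. Erythroid and neutrophil precursor scores had r = 0.783 (exact permutation, adjusted p = 0.118) and r = 0.887 (0.0347) with a pseudocount of 0.1. Of 421 recomputed list SDs, 71 moved by over 1.5 times. Without a count minimum the common CV was 0.255. No paired analysis was possible because a single group is described. Depth limits genes under a mean of 10 counts, many receptors among them, which were not tested for spread.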

Other observations

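Some single genes, named after their values were seen, stood apart in 1 control library. Gapdh, a glycolysis enzyme often taken as constant, had only 1.19 to 3.58 FPKM in 5 libraries and 12.7 in CON 2. Sumo2, a protein modifier, had 22.2 FPKM in CON 2 and 2.72 to 10.8 in the others. Both have many near-identical processed copies, so their counts are uncertain. Gm14750, an unprocessed pseudogene inside the X-linked lipocalin cluster, had 801 FPKM in CON 6, 33.5 in CON 3 and 128 to 350 in the others. Gm29216 and Gm28437, unprocessed pseudogenes on chromosome 1, had 241 and 121 FPKM in CON 5, against at most 32.2 and 52.0 elsewhere. mt-Atp6, a mitochondrial ATP synthase subunit, had 48.6 FPKM in CON 1 and 111 to 219 in the other libraries, and it overlaps mt-Atp8 and mt-Co3. The medians of mt-Atp6 and mt-Co3 were 133 and 43.1 FPKM, against 6814 for mt-Co1. Why these genes lie so far below mt-Co1 was not tested.

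Gene programmes of stress, the clock and cell division were also measured. Immediate early gene scores ran from 3.85 in CON 5 to 4.78 in CON 3, with Junb, a transcription factor of the AP-1 family, at 57.2 to 142 FPKM and Fos at 12.8 to 45.8. The score of 14 circadian clock genes had an SD of 0.07 log2 units, and Dbp, a clock output factor, had 8.36 to 13.6 FPKM. Heat shock genes also had an SD of 0.07, led by Hsp90aa1 with 128 to 154 FPKM. The score of 10 cell cycle genes was highest in CON 5, as were all 10 genes, with Mki67 at 3.63 to 7.93 FPKM. Aquaporins were abundant, with Aqp1, Aqp3 and Aqp4 at medians of 390, 213 and 158 FPKM.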
